A study of Mus musculus with 18 samples.

Results

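Cytl1, Areg, Atp2a3 and Tmem56 were 4 of the 16248 genes in a table of bulk RNA sequencing of sorted mouse endothelial cells (ECs). They were selected by their measured values, as genes strongly lower in tumour than in normal ECs under PBS, with no fixed limit, so the PBS differences are described here without a test. ECs were sorted as live CD45-/CD31+ cells from 3 tissues on the FVB background. The first was the normal mammary fat pad of wild-type mice, whose age is not given in the sources used here. The next was the spontaneous breast tumour of female MMTV-PyMT mice treated at 9 weeks of age, which express the polyoma middle T oncogene from a mouse mammary tumour virus promoter that is active mainly in mammary epithelium. The last was an implanted breast tumour, grown from MMTV-PyMT tumour cells that were expanded briefly in culture and placed in the fat pads of female wild-type hosts aged 8 to 9 weeks. Fat pads or tumours were injected with 70 µl of PBS or with 14 µg of cGAMP, a cyclic dinucleotide that activates the sensor STING, and were harvested 3 h later, with 3 libraries in each of the 6 groups. Between 9082760 and 12079856 reads per library were recovered from the deposited FPKM values (fragment counts scaled to the length of the transcript and to the size of the library), and 1 read on 1 kb of transcript was worth 0.0753 to 0.1196 FPKM.

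ECs share a core programme and add to it features of the organ they serve. In the mammary fat pad these include capillaries that take up lipid, arteries, veins and lymphatics, whereas tumour vessels are known for sprouting and for poor specialisation. The 4 genes do not belong to 1 pathway. Cytl1 encodes a small secreted cytokine-like protein. Areg encodes amphiregulin, a ligand of the epidermal growth factor receptor (EGFR) that is made as a membrane precursor, is shed by the protease ADAM17, and is best known in the mammary gland as an oestrogen target of luminal epithelium. Atp2a3 encodes SERCA3, a pump that returns calcium from the cytosol to the endoplasmic reticulum. Tmem56, now named Tlcd4, encodes a membrane protein with a TLC domain, a fold shared with the ceramide synthases.

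In the GENCODE M21 annotation of the mm10 genome, Cytl1 (ENSMUSG00000062329.4) lies on the plus strand at chr5:37735519-37739820 and Areg (ENSMUSG00000029378.5) on the plus strand at chr5:91139599-91148432. Atp2a3 (ENSMUSG00000020788.15) lies on the plus strand at chr11:72961169-72993044. Tmem56 (ENSMUSG00000028132.15) lies on the minus strand at chr3:121201761-121283098 and its span overlaps the processed pseudogenes Gm30517 on the plus strand and Gm9353 on the minus strand. Reads could not be assigned with certainty where exons overlap, and whether they do was not examined. The summed exon lengths were 1056 bases for Cytl1, 1215 for Areg, 5281 for Atp2a3 and 7874 for Tmem56, so the same FPKM rests on the fewest reads for Cytl1.

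The 250 bases before each start site are printed from the RefSeq promoter set of build GRCm38.p6, because the 4 genes were chosen for 1 shared pattern. All 4 genes matched the set, Tmem56 through its newer symbol Tlcd4. The windows are chr5:37735269-37735518 (plus strand) for Cytl1, chr5:91139349-91139598 (plus) for Areg, chr11:72960919-72961168 (plus) for Atp2a3 and chr3:121263341-121263590 (minus) for Tmem56, the last before the upstream of 2 RefSeq start sites and inside the longer GENCODE gene. None of these windows overlapped a GENCODE exon. Capitals mark matches on either strand to any of 12 short motifs.
Cytl1: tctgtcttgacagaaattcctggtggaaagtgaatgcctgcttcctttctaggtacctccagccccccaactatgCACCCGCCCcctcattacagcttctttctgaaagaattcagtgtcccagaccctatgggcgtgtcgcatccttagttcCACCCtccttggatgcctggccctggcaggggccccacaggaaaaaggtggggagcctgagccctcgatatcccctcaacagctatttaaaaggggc
Areg: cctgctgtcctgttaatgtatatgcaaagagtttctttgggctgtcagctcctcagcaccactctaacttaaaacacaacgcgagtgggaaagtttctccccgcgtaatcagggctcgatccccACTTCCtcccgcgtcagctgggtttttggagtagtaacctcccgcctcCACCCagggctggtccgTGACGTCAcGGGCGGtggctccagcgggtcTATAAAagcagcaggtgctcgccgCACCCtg
Atp2a3: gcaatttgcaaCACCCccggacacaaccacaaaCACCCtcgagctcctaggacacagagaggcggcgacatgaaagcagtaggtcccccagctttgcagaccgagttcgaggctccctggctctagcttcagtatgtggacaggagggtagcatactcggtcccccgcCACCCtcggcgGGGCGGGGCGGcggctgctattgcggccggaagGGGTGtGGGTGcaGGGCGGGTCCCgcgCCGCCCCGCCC
Tmem56: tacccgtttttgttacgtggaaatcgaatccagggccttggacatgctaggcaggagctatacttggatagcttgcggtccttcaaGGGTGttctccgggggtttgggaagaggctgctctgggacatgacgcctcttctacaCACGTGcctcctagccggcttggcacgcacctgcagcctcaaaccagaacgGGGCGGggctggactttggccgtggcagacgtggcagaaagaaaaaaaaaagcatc

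Motifs were TATAAA, the ETS core GGAAGT, the cAMP response element (CRE) TGACGTCA, the AP-1 site TGANTCA, the E-box CACGTG, the GC box CCGCCC, the KLF core CACCC, the FOX site TGTTTAC, the GATA site AGATAA, the SOX site ACAAAG, and the ISRE and NF-kB motifs. Areg held the CRE, starting at position -61 from its gene start, which was present in 1.55% of 32851 promoter windows of the same length, and TATAAA at -31, present in 12.4%. Areg also held GGAAGT, found in 19.7%. Tmem56 held the E-box CACGTG at -107, found in 6.02%. Atp2a3 held 5 matches to the GC box, some of them overlapping, and a match to the NF-kB motif that also overlapped a GC box, and 17.6% of windows held that motif. The GC box was in all 4 windows and in 32.7% of all windows, and CACCC was in all 4 and in 52% of all. In Cytl1 a match to each of them overlapped. These matches are a description of the letters in the windows, and the data hold no measure of binding. None of the 4 windows held the AP-1 letters (6.75% of all), FOX (3.17%), GATA (9.99%), SOX (16.5%) or ISRE motif (2.98%). The window before the other RefSeq start site of Tmem56 overlaps exons of that gene and is not printed. It held the SOX letters at -152 and GC boxes at -229 and -42, without CACCC or the E-box. The motifs of Tmem56 thus depend on the start site used. The share of G and C was 54.8% for Cytl1, 57.2% for Areg, 66.8% for Atp2a3 and 56% for Tmem56, against a median of 52.4% over all windows.

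Cytl1 lay below only Atp2a3 among the 4 genes in normal ECs under PBS and was near the limit of detection in implanted tumour ECs. Under PBS the normal libraries held 58.6, 60.0 and 62.0 FPKM, the MMTV-PyMT libraries 4.14, 1.49 and 2.09 FPKM, and the implanted libraries 1.01, 1.28 and 0.383 FPKM. Under cGAMP the normal libraries held 21.2, 18.4 and 13.1 FPKM, the MMTV-PyMT libraries 3.41, 2.18 and 1.41 FPKM, and the implanted libraries 0.906, 1.13 and 1.22 FPKM. By mean the order was normal PBS, normal cGAMP, MMTV-PyMT PBS, MMTV-PyMT cGAMP, implanted cGAMP and implanted PBS, in which PBS and cGAMP overlapped in each tumour and no other neighbours did. The implanted PBS values came from 4 to 12 reads per library and those of normal PBS from 709 to 752, so the low values carry a large counting error.

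Areg was high in all 6 normal libraries and close to 1 FPKM in all 12 tumour libraries. Under PBS the normal libraries held 45.8, 27.8 and 30.6 FPKM, the MMTV-PyMT libraries 1.24, 2.20 and 1.23 FPKM, and the implanted libraries 0.617, 0.465 and 0.750 FPKM. Under cGAMP the normal libraries held 31.2, 18.5 and 23.9 FPKM, the MMTV-PyMT libraries 1.29, 1.07 and 0.349 FPKM, and the implanted libraries 0.689, 1.08 and 1.38 FPKM. No tumour library reached a normal one. The normal groups overlapped each other, and in the order MMTV-PyMT PBS, implanted cGAMP, MMTV-PyMT cGAMP and implanted PBS each neighbour overlapped the next. Under PBS alone, the MMTV-PyMT libraries all lay above the implanted ones.

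Atp2a3 differed from the other genes in that MMTV-PyMT tumour ECs kept an intermediate level. Under PBS the normal libraries held 76.5, 67.6 and 79.8 FPKM, the MMTV-PyMT libraries 41.2, 22.3 and 31.3 FPKM, and the implanted libraries 1.68, 1.86 and 2.61 FPKM. Under cGAMP the normal libraries held 51.5, 31.1 and 37.9 FPKM, the MMTV-PyMT libraries 16, 16.5 and 12.9 FPKM, and the implanted libraries 2.76, 4.30 and 1.57 FPKM. Normal cGAMP and MMTV-PyMT PBS overlapped, as did implanted cGAMP and implanted PBS, and the other neighbours in the order did not. Atp2a3 was the best counted of the 4 genes in implanted ECs, with 83 to 136 reads per library under PBS.

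The 6 groups did not overlap for Tmem56. Under PBS the normal libraries held 29.0, 22.7 and 24.3 FPKM, the MMTV-PyMT libraries 3.64, 3.14 and 2.65 FPKM, and the implanted libraries 0.720, 0.416 and 0.411 FPKM. Under cGAMP the normal libraries held 22.1, 12.2 and 15.4 FPKM, the MMTV-PyMT libraries 2.21, 1.66 and 1.60 FPKM, and the implanted libraries 0.137, 0.332 and 0.276 FPKM. The order was normal, MMTV-PyMT and implanted, with PBS above cGAMP in each tissue, although the lowest normal PBS library and the highest normal cGAMP library were only 22.7 and 22.1 FPKM.

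**Figure D1:**
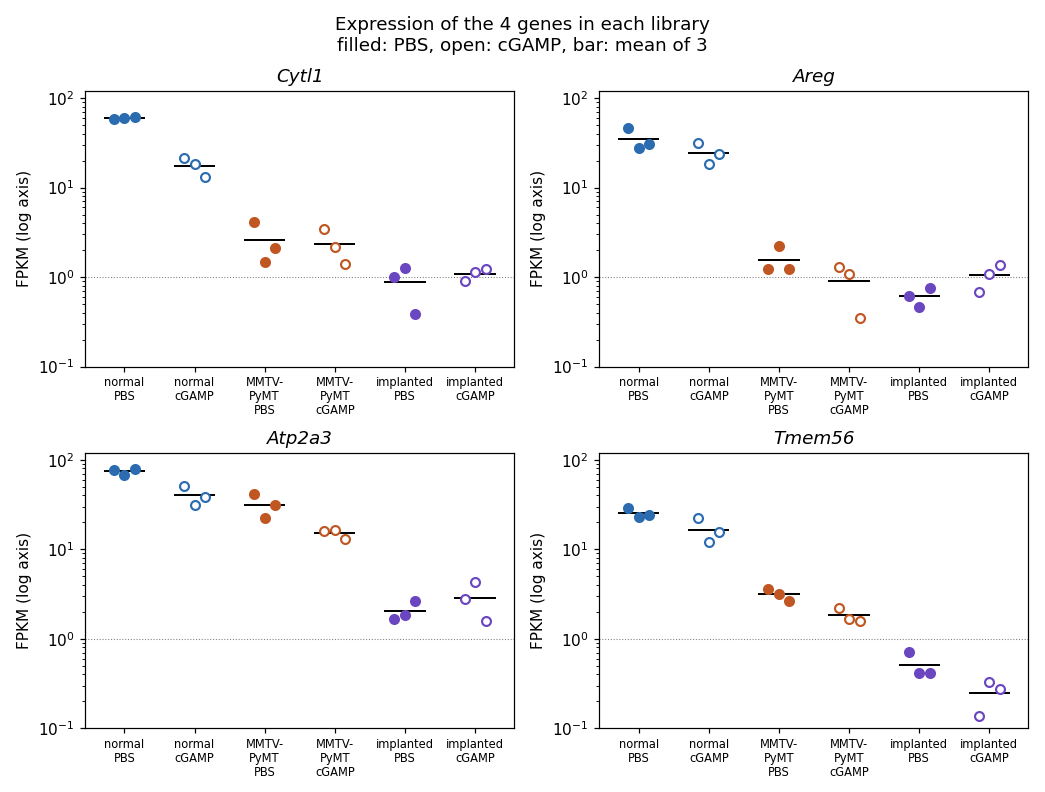
Level of each gene in FPKM on a log axis, for 3 libraries in each of 6 groups. Filled points are PBS, open points cGAMP, bars the mean of 3, and the dotted line 1 FPKM. Normal libraries lie above all tumour libraries for Cytl1, Areg and Tmem56, whereas for Atp2a3 the MMTV-PyMT PBS libraries (22.3 to 41.2 FPKM) reach the range of normal cGAMP (31.1 to 51.5 FPKM).

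As a description of the values that chose the genes, mean FPKM in normal PBS was 60.2 ± 1.67 (SD, n = 3) for Cytl1, 34.7 ± 9.67 for Areg, 74.6 ± 6.29 for Atp2a3 and 25.3 ± 3.31 for Tmem56. In implanted PBS the means were 1.48% of the normal mean for Cytl1, 1.76% for Areg, 2.75% for Atp2a3 and 2.04% for Tmem56. In MMTV-PyMT PBS they were 4.27%, 4.48%, 42.4% and 12.4%, in the same order of genes. Ranked from the lowest log2 difference among 13983 tested genes, Cytl1, Atp2a3, Areg and Tmem56 stood at 1, 2, 3 and 5 for implanted minus normal ECs under PBS. For MMTV-PyMT minus normal ECs under PBS, Cytl1 stood at 1, Areg at 5, Tmem56 at 56 and Atp2a3 at 676, so the choice describes Atp2a3 in implanted tumours better than in spontaneous tumours. Tested genes were those with at least 1 FPKM in at least 3 of the 18 libraries. All 4 genes passed this filter, Atp2a3 with 18 libraries at that level, Cytl1 with 16, Areg with 13 and Tmem56 with 12. For each gene the normal libraries alone or the tumour libraries alone would have been enough to pass.

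Markers of the sort describe which cells the libraries held, and they cannot check whether the 4 transcripts are endothelial. All 10 pan-endothelial genes were in the table, and their summed FPKM spanned 1185 to 1337 in normal PBS, 850 to 1034 in MMTV-PyMT PBS and 1303 to 1644 in implanted PBS. Pecam1, which encodes CD31, averaged 281 ± 19.4 FPKM in normal PBS, 156 ± 19.7 in MMTV-PyMT PBS and 242 ± 23.6 in implanted PBS (SD, n = 3). The libraries also held RNA of other cell types. The leukocyte marker Ptprc averaged 4.07 ± 2.17 FPKM in normal PBS, 0.287 ± 0.0392 in MMTV-PyMT PBS and 0.808 ± 0.384 in implanted PBS. In contrast, the epithelial marker Epcam averaged 60.1 ± 7.46 FPKM in normal PBS, 204 ± 15.1 in MMTV-PyMT PBS and 98.7 ± 14.9 in implanted PBS. The platelet gene Pf4 and the adipocyte genes Adipoq, Plin1, Lep, Cidec and Retn had no row in the table and were not analysed here. Of 5 platelet genes 3 were in the table. Their summed FPKM was 7.73 to 12.1 in normal PBS, 1.87 to 2.12 in MMTV-PyMT PBS and 2.55 to 2.65 in implanted PBS. Whether platelet RNA had a part in the levels of the 4 genes was not tested. In bulk libraries, fewer cells of a type and less RNA per cell cannot be told apart, and which cell in the sort carried each of the 4 transcripts was not measured.

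Several marker lists moved with the 4 genes, and their part in the results was not tested. The summed FPKM of 6 mural genes was 870 to 979 in normal PBS and 710 to 898 in normal cGAMP, against 206 to 284 in MMTV-PyMT PBS, 223 to 318 in MMTV-PyMT cGAMP, 195 to 234 in implanted PBS and 163 to 416 in implanted cGAMP. The sum of 8 fat-pad capillary genes was 1064 to 1429 in normal PBS and 1202 to 1405 in normal cGAMP, and 293 to 632 over the tumour groups. The mural marker Pdgfrb averaged 83.9 ± 18 FPKM in normal cGAMP, 27.8 ± 7.04 in MMTV-PyMT cGAMP and 44.6 ± 20 in implanted cGAMP. The sum of 5 venous genes was 290 to 341 in normal PBS and 67.6 to 119 in both tumours under PBS, but 204 to 345 in both tumours under cGAMP. The sum of 7 arterial genes was 294 to 322 in normal PBS, 125 to 158 in MMTV-PyMT PBS and 270 to 304 in implanted PBS. The genes of that list differed, in that under PBS 4 of 7 arterial genes (Gja5, Gja4, Sox17 and Bmx) were called lower in both tumours, with list medians of -1.19 in implanted and -1.59 in MMTV-PyMT ECs, and Dll4 was called higher in implanted ECs. Under PBS 5.71% of all tested genes were called lower and 5.74% higher in implanted ECs, and 7.67% lower and 6.24% higher in MMTV-PyMT ECs. The sum of 5 leukocyte genes was 9.42 to 23.8 in normal PBS, 3.55 to 4.56 in MMTV-PyMT PBS and 4.22 to 9.69 in implanted PBS, and that of 5 lymphatic genes was 73.3 to 85.6, 22.2 to 34 and 55.1 to 75.8. The lymphatic genes also differed among themselves in implanted PBS. There Lyve1, Reln and Mmrn1 were called lower and Flt4 higher, with a list median of -1.31. In MMTV-PyMT PBS 4 of 5 were called lower, with a median of -1.87. The luminal epithelial sum ran the other way in MMTV-PyMT, with 1069 to 1176 FPKM under PBS against 432 to 579 in normal PBS. In implanted PBS that sum was 518 to 733 FPKM, with 3 of 9 luminal genes called higher and 2 lower than in normal PBS.

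**Figure D2:**
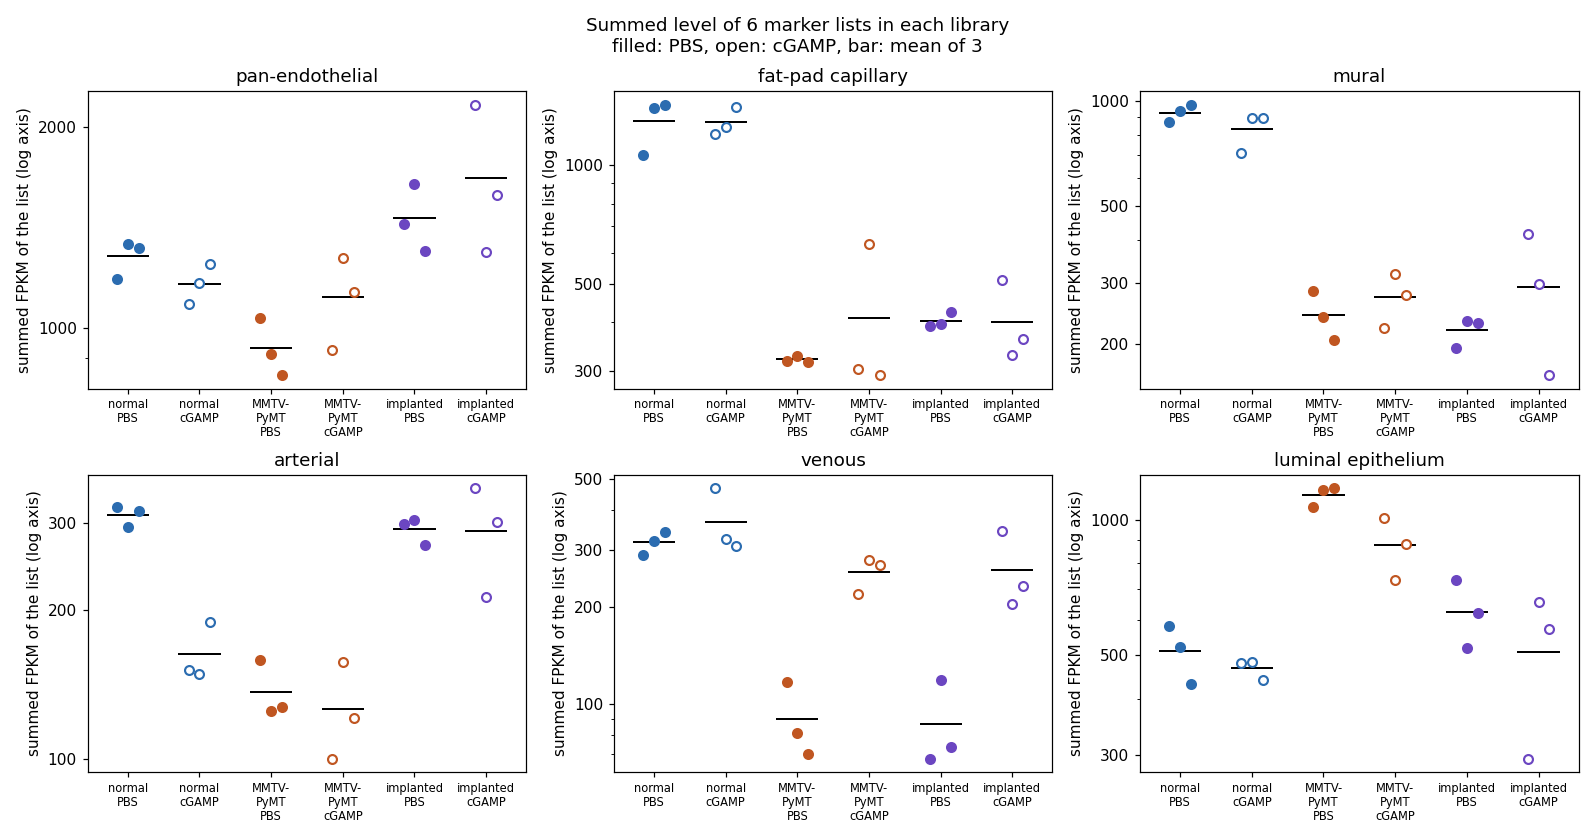
Summed FPKM of 6 marker lists on log axes that differ between panels, for 3 libraries in each of 6 groups. Filled points are PBS, open points cGAMP and bars the mean of 3. The mural and fat-pad capillary sums of all normal libraries lie above those of all tumour libraries. The pan-endothelial sums of MMTV-PyMT PBS (850 to 1034) lie below those of all normal libraries, and those of the other tumour groups overlap the normal range.

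The cGAMP libraries were not used in the choice, so they allow a test of the tissue difference in other samples of the same tissues. The fit drew its spread from all 18 libraries, so the p-values are not fully separate from the PBS libraries. With only the groups compared in the fit, the differences of the 4 genes from normal ECs under cGAMP also passed the adjusted p. All 4 genes were lower in implanted than in normal ECs under cGAMP, and in all 4 every implanted library lay below every normal one, as in 25.9% of all tested genes. Mean FPKM fell from 17.6 ± 4.12 to 1.08 ± 0.16 for Cytl1 (SD, n = 3), a 16.2-fold difference of means. For Areg it was 24.5 ± 6.36 against 1.05 ± 0.348, 23.4-fold. For Atp2a3 it was 40.2 ± 10.3 against 2.88 ± 1.37, 14-fold, and for Tmem56 16.6 ± 5.05 against 0.248 ± 0.101, 66.7-fold. A gene was called at an adjusted p under 0.05 and at least 2-fold on the log2(FPKM + 1) scale, which understates the change of low genes. In the limma fit across all genes with Benjamini-Hochberg adjustment the differences were -3.13 (SE 0.26, adjusted p = 5.5e-08) for Cytl1, -3.62 (SE 0.23, adjusted p = 4.39e-09) for Areg, -3.44 (SE 0.25, adjusted p = 1.2e-08) for Atp2a3 and -3.78 (SE 0.17, adjusted p = 2.07e-10) for Tmem56. Thus 4 of 4 genes were called lower, where 5.18% of 13983 tested genes were called lower and 9.03% higher. Beside this, 3 of 6 mural genes (Rgs5, Acta2 and Myh11) and 5 of 8 fat-pad capillary genes were called lower. Also called lower were 1 of 7 arterial genes, 3 of 5 venous genes and 1 of 10 pan-endothelial genes (Tek). Called higher were Car4 of the capillary list, Dll4 of the arterial list, Vcam1 of the venous list and 6 of 6 tip-cell genes.

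All 4 genes were also lower in MMTV-PyMT than in normal ECs under cGAMP, in all 4 without overlap of libraries, as in 26.3% of all tested genes. Mean FPKM in MMTV-PyMT cGAMP was 2.33 ± 1.01 for Cytl1, 0.903 ± 0.492 for Areg, 15.1 ± 1.95 for Atp2a3 and 1.83 ± 0.337 for Tmem56 (SD, n = 3). These means lay 7.53-fold, 27.2-fold, 2.65-fold and 9.07-fold under the normal cGAMP means. The log2 differences were -2.50 for Cytl1 (SE 0.26, limma with Benjamini-Hochberg adjusted p = 1.67e-06), -3.75 for Areg (SE 0.23, adjusted p = 2.04e-08), -1.33 for Atp2a3 (SE 0.25, adjusted p = 0.000361) and -2.60 for Tmem56 (SE 0.17, adjusted p = 2.98e-08). Again 4 of 4 genes were called lower, where 5.38% of all tested genes were called lower and 5.05% higher. Ranked from the lowest difference, Areg stood at 3, Tmem56 at 23, Cytl1 at 28 and Atp2a3 at 383 of 13983. Beside this, 5 of 6 mural genes, 6 of 8 fat-pad capillary genes, 3 of 7 arterial and 3 of 5 venous genes were called lower, and 0 of 10 pan-endothelial genes were called in either direction by limma, with 3 of 10 at an unadjusted p under 0.05, among them Tek at a log2 difference of -0.47. Cldn5 of the pan-endothelial list fell further, from 148 ± 29.9 FPKM in normal cGAMP to 76.8 ± 12.2 in MMTV-PyMT cGAMP (SD, n = 3). The median of that list was -0.01.

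The luminal epithelial list split in this comparison. Epcam, Krt8, Cdh1, Elf5, Cldn3 and Cldn7 were called higher in MMTV-PyMT than in normal ECs under cGAMP, whereas Krt19 and the oestrogen receptor gene Esr1 were called lower, as they were in implanted ECs. These marker genes were named after their values were seen. Esr1 averaged 3.22 ± 0.701 FPKM in normal cGAMP, 0.91 ± 0.181 in MMTV-PyMT cGAMP and 0.563 ± 0.0426 in implanted cGAMP (SD, n = 3). Of the remaining lists in the implanted and the MMTV-PyMT comparison with normal ECs, respectively, lymphatic genes were called lower in 2 and 3 of 5, leukocyte genes in 1 and 2 of 5, basal epithelial genes in 1 and 0 of 4, platelet genes in 0 and 1 of 3, and fibroblast genes in 0 of 4 in both. Genes of these lists called higher were the lymphatic Flt4 and the leukocyte Adgre1 in implanted ECs and the fibroblast Col1a1 in both. The tip-cell list had 2 of 6 called higher in MMTV-PyMT ECs. Their part in the results of the 4 genes was not tested.

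The tumour models differed from each other under cGAMP for Atp2a3 and Tmem56. Atp2a3 was 5.26-fold lower by mean FPKM in implanted than in MMTV-PyMT ECs, with a log2 difference of -2.11 (95% interval -2.63 to -1.59, limma with Benjamini-Hochberg adjusted p = 4.25e-06). Tmem56 was 7.36-fold lower, with a log2 difference of -1.18 (-1.54 to -0.82, adjusted p = 3.58e-05). Cytl1 did not pass, at -0.64 (-1.18 to -0.09, limma adjusted p = 0.0504), which was also under the 2-fold limit, although its libraries did not overlap. With a pseudocount of 0.1 in place of 1 the difference was -0.96 and passed the adjusted p but not the 2-fold limit. Areg did not pass, at 0.13 (-0.37 to 0.62, limma adjusted p = 0.668), and its libraries overlapped. Thus 2 of 4 genes were called lower, where 3.36% of all tested genes were called lower and 7.02% higher. In 3 of 4 every implanted library lay below every MMTV-PyMT library, as in 26.7% of all tested genes.

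**Figure D3:**
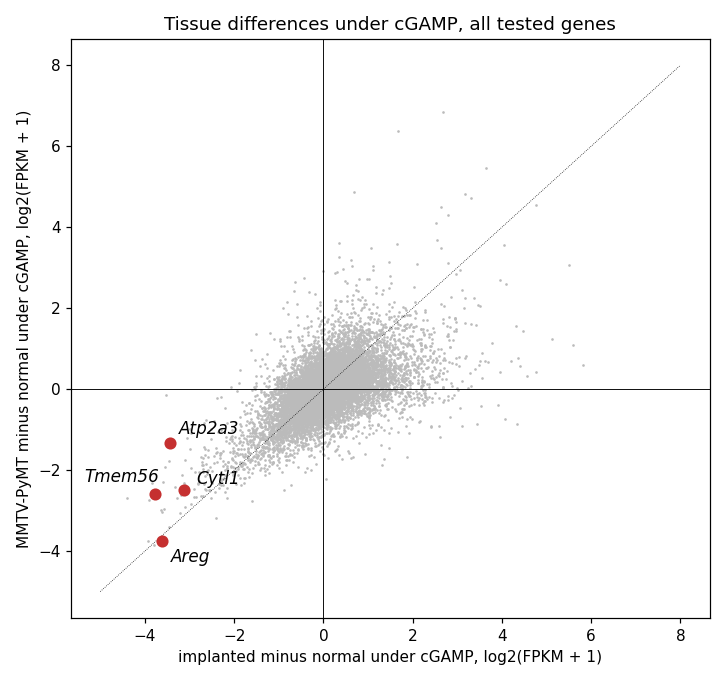
Log2(FPKM + 1) differences under cGAMP for the 13983 tested genes (grey) and the 4 genes (red), with implanted minus normal ECs on the x axis, MMTV-PyMT minus normal ECs on the y axis and equality as the dotted line. Areg lies near equality at -3.62 and -3.75, whereas Atp2a3 lies far from it at -3.44 and -1.33.

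cGAMP was set beside PBS within each tissue to ask whether STING activation moved these genes. These differences use the PBS libraries on which the genes were chosen, so they are given as a description, with their SE from limma and with no test. How many of all tested genes lacked overlap between cGAMP and PBS libraries was not counted. Overlap or its absence is therefore only a description in these comparisons. In normal ECs Cytl1 averaged 60.2 ± 1.67 FPKM with PBS and 17.6 ± 4.12 with cGAMP (SD, n = 3), which is 29.2% of the PBS mean, and every cGAMP library lay below every PBS library. Its log2 difference was -1.75 (SE 0.26). Atp2a3 stood at 53.8% of its PBS mean at -0.90 (SE 0.25) and Tmem56 at 65.4% at -0.62 (SE 0.17), both without overlap of libraries. Areg was at 70.6% of its PBS mean, at -0.48 (SE 0.23), and its libraries overlapped.

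Leaving out 1 library at a time gave -1.89 to -1.56 for Cytl1, -1.09 to -0.74 for Atp2a3, -0.83 to -0.43 for Tmem56 and -0.66 to -0.27 for Areg. In the normal cGAMP group, library 1 had the highest value of the 3 for each of the 4 genes. The other genes tested in the same comparison were not chosen on these libraries. Of 7 arterial genes 2 were called lower, Gja5 and Hey1, where 0.687% of all tested genes were called lower and 3.02% higher, and all 7 were lower at an adjusted p under 0.05 by limma, with a list median of -0.79. None of 10 pan-endothelial, 8 fat-pad capillary or 6 mural genes was called by limma, with 1, 1 and 2 of them at an unadjusted p under 0.05 and 1, 0 and 1 at an adjusted p under 0.05. Tek of the pan-endothelial list averaged 88.3 ± 7.14 FPKM in normal PBS and 49.9 ± 6.21 in normal cGAMP. The venous list was mixed, with Selp called higher and a list median of 0.37, while Vwf averaged 138 ± 11.8 and 87.1 ± 14.6 FPKM. A lower level was thus not particular to arterial genes. Gja5, which encodes the arterial gap junction protein connexin 40, averaged 32.8 ± 2.44 FPKM in normal PBS and 6.22 ± 1.99 in normal cGAMP. Whether arterial RNA had a part in the lower level of Cytl1 was not tested.

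In MMTV-PyMT ECs Atp2a3 averaged 31.6 ± 9.45 FPKM with PBS and 15.1 ± 1.95 with cGAMP (SD, n = 3), 47.9% of the PBS mean, at -0.98 on the log2 scale (SE 0.25). Tmem56 averaged 3.14 ± 0.493 and 1.83 ± 0.337 FPKM, at -0.55 (SE 0.17). For both, every cGAMP library lay below every PBS library. Cytl1 was at -0.08 (SE 0.26) and Areg at -0.44 (SE 0.23), and both had overlapping libraries.

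In implanted ECs the log2 differences of cGAMP from PBS were 0.17 for Cytl1 (SE 0.26), 0.34 for Areg (SE 0.23), 0.30 for Atp2a3 (SE 0.25) and -0.28 for Tmem56 (SE 0.17). Tmem56 was at 48.1% of its PBS mean with no overlap of libraries, and with a pseudocount of 0.1, which weighs low values more, its difference was -0.83. The other 3 genes had overlapping libraries. The cGAMP values rested on 8 to 13 reads per library for Cytl1, 7 to 17 for Areg and 9 to 22 for Tmem56.

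The difference of the cGAMP effect between tissues uses the same PBS libraries and is likewise given without a test. For Cytl1 the effect in implanted minus that in normal ECs was 1.91 (SE 0.37), and in MMTV-PyMT minus normal ECs it was 1.67 (SE 0.37). For Atp2a3 the effect in implanted minus that in normal ECs was 1.20 (SE 0.35), in implanted minus MMTV-PyMT ECs 1.28 (SE 0.35), and in MMTV-PyMT minus normal ECs -0.08 (SE 0.35). For Areg and Tmem56 the values were 0.82 and 0.34 for implanted minus normal, 0.04 and 0.06 for MMTV-PyMT minus normal, and 0.78 and 0.27 for implanted minus MMTV-PyMT. A gene at a low level has little room to fall on the log2(FPKM + 1) scale. In implanted PBS the mean FPKM was 0.893 for Cytl1, 0.61 for Areg, 2.05 for Atp2a3 and 0.516 for Tmem56. In MMTV-PyMT PBS it was 2.57 for Cytl1, 1.56 for Areg and 3.14 for Tmem56, so this limit is not particular to Cytl1.

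**Figure D4:**
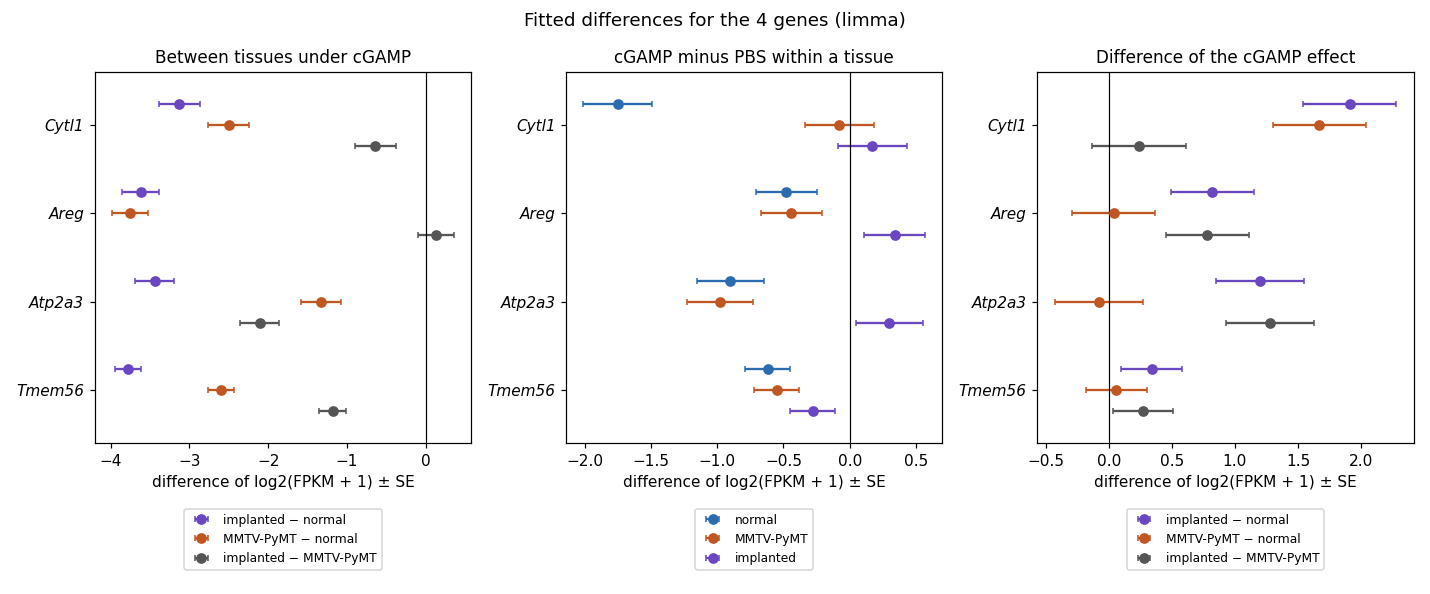
Fitted differences of log2(FPKM + 1) for the 4 genes with their SE from limma, between tissues under cGAMP (left), between cGAMP and PBS within each tissue (middle), and as the difference of the cGAMP effect between tissues (right). Under cGAMP all differences from normal ECs lie below 0, from -3.78 to -1.33, and in the middle panel Cytl1 in normal ECs stands apart at -1.75.

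No other tested gene among the EGFR ligands, receptors and shedding proteins was called lower in either tumour than in normal ECs. Of 16 such genes 14 were in the table and 13 were tested, and under cGAMP 2 were called higher and 0 lower in implanted than in normal ECs, with a list median of 0.52 against 0.038 over all genes. In MMTV-PyMT against normal ECs under cGAMP 0 of 13 were called by limma, 8 of 13 had an unadjusted p under 0.05, with a median of 0.34 against 0.035. The genes called higher were Rhbdf2, which encodes a rhomboid-like partner of ADAM17, and Adam17 itself. Rhbdf2 averaged 7.9 ± 0.429 FPKM in normal cGAMP and 38.2 ± 5.33 in implanted cGAMP (SD, n = 3), a log2 difference of 2.13 (limma adjusted p = 3.77e-10), and Adam17 averaged 11.3 ± 0.921 and 24.5 ± 3.07 (1.04, limma adjusted p = 4.6e-08). Under PBS 1 of 13 was called higher in implanted ECs (Rhbdf2) and 2 in MMTV-PyMT ECs (Egf and Erbb4), with 0 lower in both. The receptor gene Egfr was higher by 0.41 in implanted (limma adjusted p = 0.0271) and by 0.45 in MMTV-PyMT ECs (limma adjusted p = 0.0195), under the 2-fold limit. Erbb2, a receptor partner, had a log2 difference of -0.72 in implanted ECs (limma adjusted p = 1.13e-06). With cGAMP in normal ECs, the EGFR ligand gene Hbegf was the 1 gene of the list called, higher at 1.44 (limma adjusted p = 3.8e-05).

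Few genes of calcium stores were called lower under cGAMP. Of 22 such genes other than Atp2a3, 19 were in the table and 17 were tested. Under cGAMP 1 was called lower and 0 higher in implanted and in MMTV-PyMT against normal ECs, with medians of 0.23 and 0.08 against 0.038 and 0.035 over all genes. The gene was Atp2b4 in both, a plasma membrane calcium pump, with 23 ± 2.13 FPKM in normal cGAMP, 10.1 ± 1.88 in implanted cGAMP and 10.4 ± 2.64 in MMTV-PyMT cGAMP. Under PBS 4 of 17 were called lower in both tumours (Atp2b2, Atp2b4, Itpr1 and Pln), and 1 was called higher in implanted ECs (Orai1), with medians of -0.01 in implanted and 0.01 in MMTV-PyMT ECs. The genes called under PBS were named after their values were seen. The log2 differences of Atp2b4 under cGAMP were -1.12 (limma adjusted p = 2.29e-05) and -1.09 (limma adjusted p = 5.17e-05). Atp2a2, which encodes the widely expressed pump SERCA2, was lower in implanted ECs by a log2 difference of -0.79 (limma adjusted p = 1.46e-06) and in MMTV-PyMT ECs by -0.35 (limma adjusted p = 0.00361). In FPKM, a unit per length, Atp2a3 and Atp2a2 were of like level in normal PBS, at 74.6 ± 6.29 and 89.2 ± 4.49, whereas in implanted PBS Atp2a2 stood at 53.6 ± 6.63 and Atp2a3 at 2.05 ± 0.49.

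Genes with a TLC domain other than Tmem56 were 15, of which 14 were in the table and 13 were tested. Under cGAMP 1 was called higher and 0 lower in implanted against normal ECs (median 0.25), and in MMTV-PyMT against normal ECs 2 rose past the limits and 0 fell (median 0.03). The gene called in both was Tram2, which encodes a protein of the translocating chain-associated family at the endoplasmic reticulum, at 2.83 in implanted (limma adjusted p = 1.27e-09) and 1.05 in MMTV-PyMT ECs (limma adjusted p = 6.77e-05). Tram1, of the same family, was called in MMTV-PyMT ECs at 1.17 (limma adjusted p = 6.11e-08). Under PBS Tram2 was called higher and Tmem136 lower in implanted ECs, and Tram1 and Cers3 were called higher in MMTV-PyMT ECs.

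The genes whose centred log2(FPKM + 1) profile over the 18 libraries lay nearest to each of the 4 were found by the root mean square difference. For Cytl1 they were Ccdc3 (0.53), Tmem56 (0.55) and Areg (0.58). For Areg they were Cdo1 (0.36), Ccdc3 (0.38) and Myh11 (0.39). For Tmem56 they were Spock2 (0.37), Chp2 (0.38) and Adh1 (0.41), and for Atp2a3 they were Efhd1 (0.57), Ly6d (0.60) and Glycam1 (0.65). The distances from Atp2a3 to the other members were larger, at 1.07 to Cytl1, 1.24 to Areg and 0.74 to Tmem56. Myh11 encodes the smooth muscle myosin heavy chain and belongs to the mural list, with 79.3 ± 8.61 FPKM in normal PBS, 4.46 ± 1.36 in MMTV-PyMT PBS and 3.62 ± 0.526 in implanted PBS. Glycam1 encodes a mucin-like glycoprotein known from lymph node venules and milk, and it held 22.6 ± 6.69, 14 ± 8.7 and 0.575 ± 0.448 FPKM in the same groups. These distances describe profiles over libraries that share groups and are no test.

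**Figure D5:**
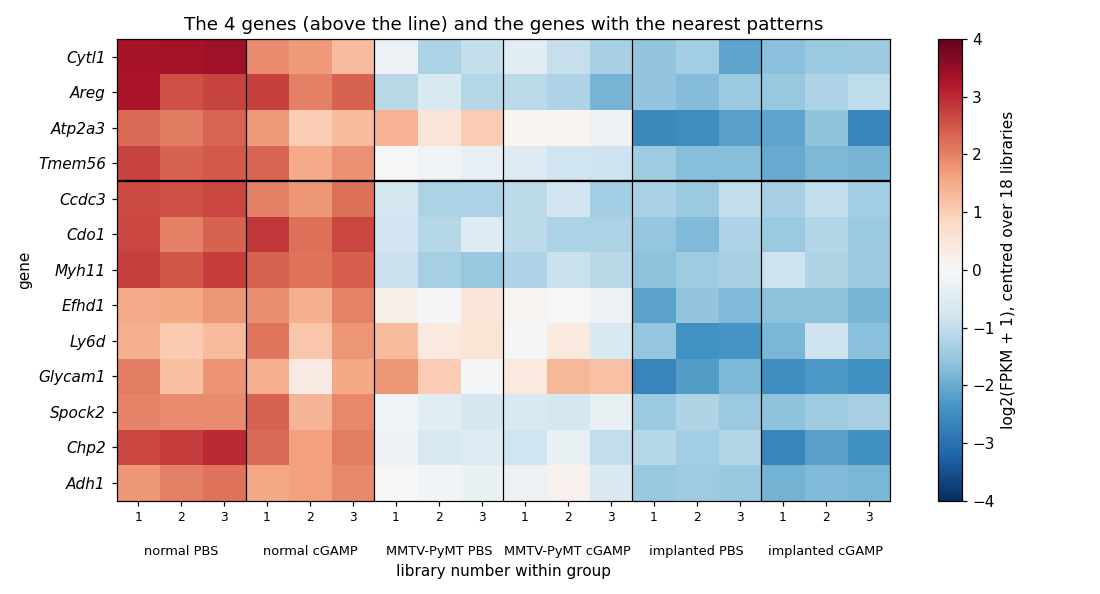
Centred log2(FPKM + 1) of the 4 genes (above the line) and of the genes with the nearest profiles, over 18 libraries in 6 groups, with red above and blue below the mean of the gene. Cytl1, Areg and Tmem56 are above their mean in the normal libraries and at or below it in the tumour libraries, whereas Atp2a3 and its neighbours Efhd1, Ly6d and Glycam1 stay near their mean or above it in most MMTV-PyMT libraries.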

How the data were processed

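Bulk RNA sequencing of sorted ECs was analysed in 18 libraries, 3 in each of 6 groups. Per the labels, a directional kit was used, and STAR 2.7 and HTSeq with the mm10 genome are named in the processing notes. The strand setting of the counting and the step that made FPKM are not given in the sources used here. The authors deposited FPKM values per gene, in which 0 columns could not be matched to a sample. The columns of the normal fat pad carry no tissue name and were taken by elimination. Whole reads were recovered from the FPKM steps for 99.96% of genes, at a tolerance of 0.02 of a read, with GENCODE M21 exon lengths for 97.16%, and the deposited scaling followed median-of-ratios size factors within 0.025%. No value of the table is 0.

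Genes with FPKM of at least 1 in at least 3 libraries (13983 of 16248) were tested on log2(FPKM + 1) in R 4.3.3 with limma 3.58.1, with 1 mean per group, a variance trend and 2-sided p-values adjusted over all tested genes by Benjamini-Hochberg. A call needs an adjusted p under 0.05 and at least 2-fold. For the 4 genes, differences between cGAMP and PBS and their differences between tissues carry no p, since the PBS libraries chose the genes. The fit was tested on simulated data. A fold in FPKM is a ratio of group means, and 95% intervals are from limma. Library numbers did not pair the samples: over 45 pairs with the same number, correlations of the deviations from the group means ran from -0.35 to 0.29 with a median of -0.01. The study describes 3 mice a group from independent experiments, without tying single libraries to them, and p-values measure the spread between these libraries. The lowest chi-square per gene over 18 replicate pairs was 4.07, so no pair agreed within sampling noise.

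The 4 genes and all lists were chosen with earlier results of these data known. Named genes were the 4, up to 5 called genes of each pathway list under cGAMP with Egfr, Erbb2 and Atp2a2, the 3 nearest profiles of each gene, the defining markers of each cell type and genes that overlap one of the 4. Alternatives were another pseudocount, no filter, scaling by total reads, quantile normalization, no trend, only the groups compared, a replicate block, voom on the recovered reads, no fold limit and each library left out. Plots were made with Python 3.11.15 and matplotlib 3.10.9.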

Additional observations from a re-analysis of the deposited data

How the results depend on the processing

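All 8 differences of the 4 genes from normal ECs under cGAMP kept their direction and passed the limma adjusted p under all 26 alternatives, as did the differences of Atp2a3 and Tmem56 between the tumour models. Of 936 alternative values of the 4 genes, 907 kept direction and side of the test or, where no test was made, moved by less than the SD between replicates. For Cytl1 between the tumour models 10 alternatives passed the adjusted p, 2 of Areg changed sign, and 17 without a test moved by more than that SD. The size depended on the scale. The Tmem56 difference between implanted and normal ECs under cGAMP was -3.78 as reported and -6.05 with voom on the recovered reads, and that between the tumour models was -1.18 and -2.92, since log2(FPKM + 1) understates changes below 1 FPKM. Scaling by total reads shifted the median of all genes to -0.32 for implanted minus normal under cGAMP, from 0.04.

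The Cytl1 difference between the tumour models passed the adjusted p with a pseudocount of 0.1 (-0.96), scaling by total reads (-0.80), quantile normalization (-0.66) and, with limma adjusted p = 0.0317, the replicate block (-0.64), and ran from -0.85 to -0.41 without 1 library at a time, passing without normal cGAMP library 3, implanted PBS library 2 or 3, MMTV-PyMT PBS library 1 or 2, or MMTV-PyMT cGAMP library 3. The block changed the side of the test for no other tested difference of the 4 genes. The library numbers did not pair the samples, with 4 of 18 libraries correlating best with their own number. The Areg difference between the tumour models was -0.03 with scaling by total reads and ran from -0.10 to 0.28 without 1 library, below 0 without MMTV-PyMT cGAMP library 3.

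Of the values without a test, those of Areg and Tmem56 moved with the pseudocount of 0.1 and with voom. For Areg the values were -0.83 and -0.83 for cGAMP minus PBS in MMTV-PyMT, 0.67 and 0.73 in implanted ECs, and for the difference of that effect 1.16 and 1.23 (implanted minus normal), -0.33 and -0.33 (MMTV-PyMT minus normal) and 1.5 and 1.55 (implanted minus MMTV-PyMT). For Tmem56 they were -0.83 and -1.06 for cGAMP minus PBS in implanted ECs, -0.78 with voom in MMTV-PyMT ECs, and for the difference of the effect -0.19 and -0.41 (implanted minus normal) and -0.08 and -0.28 (implanted minus MMTV-PyMT). The causes were not tested.

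Over all genes, calls were 7839 without a fold limit, 3104 with a pseudocount of 0.1 and 3243 with voom, against 1986, for implanted minus normal under cGAMP. They were 7099, 2604 and 2692 against 1458 for MMTV-PyMT minus normal, and 7122, 2505 and 2579 against 1451 between the tumour models. Depth limits the tumour values of Cytl1 and Areg and the implanted values of Tmem56, which rest on few reads per library. Tmem56 had 29 to 53 reads per library in implanted PBS and 9 to 22 in implanted cGAMP, so its folds for implanted ECs are imprecise.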
